A study of Mus musculus with 6 samples.

Results

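The transcription factor p53, encoded by Trp53, and 9 of its target genes were followed in RNA-seq counts of the murine lung cancer cell line 889. They were chosen by name. The target genes were Cdkn1a, Mdm2, Ccng1, Trp53inp1, Sesn1, Zmat3, Phlda3, Eda2r and Perp, and all 10 genes were found among the 34745 genes of each library. The cells came from a C57BL/6 lung tumour line and carried Cas9 with an sgRNA, which is the short RNA that directs Cas9 to its cutting site. The sgcontrol group (3 libraries) had a control sgRNA against EGFP, and the sgkiaa1522 group (3 libraries) had an sgRNA against kiaa1522. Both groups thus carried a lentiviral Cas9 vector. Whether each group was 1 clone or a pool, and the Trp53 genotype of the line, are not given in the sources used here.

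In unstressed cells p53 protein is kept low by Mdm2, a ubiquitin ligase that marks it for degradation and is itself a p53 target. DNA damage and other stress block this loop, and p53 then binds paired decamer sites near its targets and raises genes of cell cycle arrest, apoptosis, DNA repair and metabolism. In the lung, loss of p53 is a common step in the progression of adenocarcinoma. The level of Trp53 mRNA does not measure the protein, since p53 is controlled mainly through its stability.

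Library totals ran from 12220001 to 18609376 counts. The targeted gene was checked first. C77080, the mouse gene for kiaa1522, had 2214, 2404 and 2064 counts in sgcontrol and 2554, 3726 and 3667 counts in sgkiaa1522. Its level was 127 ± 2.93 CPM (counts scaled to library size with TMM factors, SD, n = 3) in sgcontrol and 210 ± 6.38 CPM in sgkiaa1522, a log2 fold change of 0.73 (SE 0.0569). The mRNA was therefore higher, not lower, in the libraries labelled sgkiaa1522, and every direction below is drawn between libraries as labelled. Whether the labels of the groups were exchanged was not tested, and an exchange would turn every direction given here. Counts of a whole gene do not show whether its reading frame was cut. The labels do not say that replicates were separate cultures, so p-values measure the spread between these libraries, which may be technical. In bulk RNA, fewer cells of a kind and less RNA per cell cannot be told apart.

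Of the 10 genes, 7 had more than 500 counts in total and entered the test, and 3 (Trp53, Eda2r and Perp) did not. Among the 7, Phlda3, Sesn1, Ccng1 and Zmat3 were lower in sgkiaa1522 at an adjusted p of at most 0.05 (edgeR's quasi-likelihood F-test, Benjamini-Hochberg). This made 4 of 7 lower, or 57.1%, where 26.3% of all 10046 tested genes were lower. With DESeq2 it was 3 of 7, without Zmat3. None of the 7 was higher (0 also at an unadjusted p under 0.05, and 0 with DESeq2), where 26.3% of all tested genes were higher. When the log2 fold change also had to reach 1 in size, Phlda3 alone stayed, against 4.34% of tested genes lower and 2.74% higher by that rule. The median log2 fold change was -0.30 over the 7 and -0.0067 over all tested genes. The remaining 3, Cdkn1a, Mdm2 and Trp53inp1, did not pass.

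The sequence just upstream of the start is shown for 4 of the targets, which differ in both their match and their response. Sites outside these windows were not searched. The windows hold 250 bases before a RefSeq start on GRCm38.p6, and 7 of the 10 genes had 9 such windows. Capitals mark matches to the p53 decamer, made of purines, a C, a pair of A or T bases, a G and pyrimidines. They also mark every base of a full site, including a base that mismatches. A full site was counted where 2 decamers stood without a spacer over 20 bases, with at most 2 mismatches. The pattern is its own reverse complement, so 1 strand covers both. Cdkn1a and Ccng1 held a full site with 1 mismatch, Mdm2 held a decamer, and Phlda3 held neither.
Cdkn1a, chr17:29090729-29090978, plus strand: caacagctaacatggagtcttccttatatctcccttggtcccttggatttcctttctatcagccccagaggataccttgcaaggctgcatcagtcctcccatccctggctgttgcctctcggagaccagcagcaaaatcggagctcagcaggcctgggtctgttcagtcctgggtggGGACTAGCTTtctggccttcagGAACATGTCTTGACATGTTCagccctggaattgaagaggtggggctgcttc
Ccng1, chr11:40755287-40755536, minus strand: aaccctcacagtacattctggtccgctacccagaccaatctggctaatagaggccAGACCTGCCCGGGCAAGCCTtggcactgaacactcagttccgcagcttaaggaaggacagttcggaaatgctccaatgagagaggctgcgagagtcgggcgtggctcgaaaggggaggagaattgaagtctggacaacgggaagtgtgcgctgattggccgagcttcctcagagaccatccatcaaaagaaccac
Mdm2, chr10:117710759-117711008, minus strand: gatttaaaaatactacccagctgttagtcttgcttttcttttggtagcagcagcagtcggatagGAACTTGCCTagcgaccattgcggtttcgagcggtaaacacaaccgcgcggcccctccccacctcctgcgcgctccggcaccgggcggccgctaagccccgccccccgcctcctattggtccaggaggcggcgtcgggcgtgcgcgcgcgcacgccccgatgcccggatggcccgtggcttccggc
Phlda3, chr1:135765835-135766084, plus strand: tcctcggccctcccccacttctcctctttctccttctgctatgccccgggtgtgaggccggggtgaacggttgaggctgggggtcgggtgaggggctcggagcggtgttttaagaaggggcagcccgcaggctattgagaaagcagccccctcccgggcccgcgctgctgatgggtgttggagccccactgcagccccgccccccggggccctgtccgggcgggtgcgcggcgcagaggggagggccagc

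In the Cdkn1a window shown, which precedes the more upstream start of the gene, a decamer began at -73 and the full site at -51 from that start. The window before the downstream Cdkn1a start, chr17:29093519-29093768, had no match. The full site of Ccng1 began at -195 and the Mdm2 decamer at -186. A decamer was also found at -75 before Trp53 and at -173 before 1 of 2 Sesn1 starts, and none before Eda2r. Among 32851 windows of this length, 7.13% held a decamer and 0.661% a full site. A match describes letters and not binding, and the absence of one says only that these letters are not in this window. Ccng1 and Cdkn1a both held a full site, and Ccng1 was called lower while Cdkn1a was not. Phlda3, with no match in its window, fell the most of the 7. Whether a match goes with the response was not tested. The targets shown are few and differ in both, and sites outside the windows were not searched.

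Levels were compared between genes per length, as TPM, in which counts are divided by summed exon length and scaled to a common total. Phlda3 was the most abundant at a mean of 181 TPM (range 110 to 265 over 6 libraries), above 93.7% of tested genes. Cdkn1a followed at 76.7 TPM (66.5 to 83.4) and Ccng1 at 45.4 TPM (40.0 to 56.3). Mdm2 had 20.2 TPM (18.9 to 21.4), Trp53inp1 18.2 TPM (14.3 to 21.7) and Sesn1 12.9 TPM (9.65 to 17.0). These 3 were not fully separate, as the ranges of Mdm2 and Trp53inp1 overlapped, and so did those of Trp53inp1 and Sesn1. Zmat3 lay at 4.68 TPM (3.99 to 5.19), and Trp53 itself at 1.8 TPM (0.405 to 3.46). Of tested genes, 0.519% lay below Trp53. The count filter had removed Trp53 and other genes with few counts from that set. The share therefore does not rank Trp53 among all genes. Perp and Eda2r, at 0.0258 and 0.0156 TPM, overlapped. With mean transcript length in place of summed exon length, the order of the first 8 was the same but levels moved. Mdm2 went to 31.3 TPM, while Trp53inp1 stayed at 18.4 TPM, so the closeness of these genes depends on the length used. Cdkn1a went to 99.1, Ccng1 to 37.9 and Zmat3 to 5.58 TPM.

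**Figure D1:**
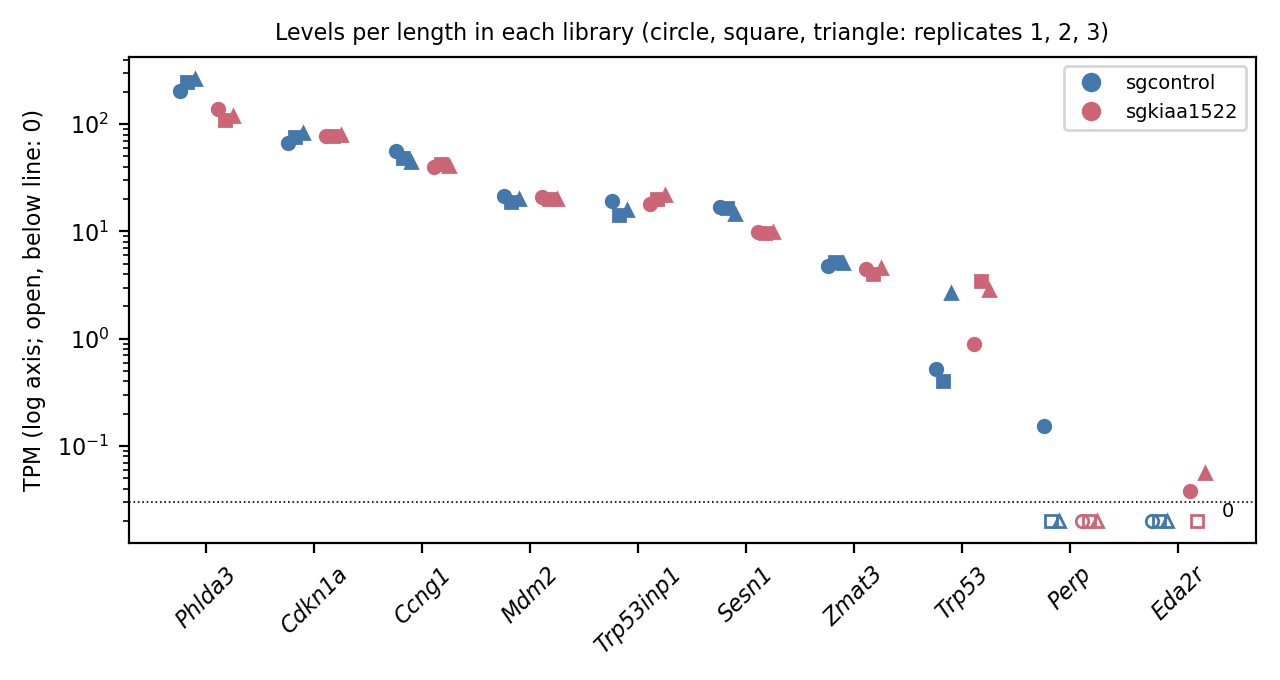
Levels of the 10 genes in TPM on a log axis, with 1 point per library coloured by group. Phlda3 stands highest and Trp53 spreads over the widest range on this axis among genes with a mean above 1 TPM, from 0.405 to 3.46.

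Trp53 (ENSMUSG00000059552, chr11:69580359-69591873 on GRCm38, plus strand) was counted 14, 12 and 71 times in sgcontrol and 16, 95 and 70 times in sgkiaa1522. This came to 0.803, 0.647 and 4.26 CPM against 1.32, 5.18 and 4.12 CPM. Each group thus held both low and high libraries, and the groups overlapped. The group means were 1.9 ± 2.04 and 3.54 ± 2.0 CPM (SD, n = 3), and an exact two-sided permutation test gave p = 0.3, where 0.1 is the smallest that 3 against 3 allows. Within sgcontrol the highest library was 6.58 times the lowest, and within sgkiaa1522 3.93 times. Exact 95% Poisson intervals on the counts, which cover counting error only, were 7.65 to 23.5, 6.2 to 21 and 55.5 to 89.6 in sgcontrol. In sgkiaa1522 they were 9.15 to 26.0, 76.9 to 116 and 54.6 to 88.4. The low and the high libraries were therefore separate beyond counting error, and the labels do not tell them apart. The ratio of the group means was 0.90 on the log2 scale. It was 2.29 without sgcontrol replicate 3, 0.53 and 0.48 without sgcontrol replicates 1 and 2, and 0.52 without sgkiaa1522 replicate 2. Fitted with a looser filter (edgeR's filterByExpr), the log2 fold change was 0.97 (SE 0.714, adjusted p = 0.29). No other annotated gene shares an exon base with Trp53 in GENCODE M21.

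**Figure D2:**
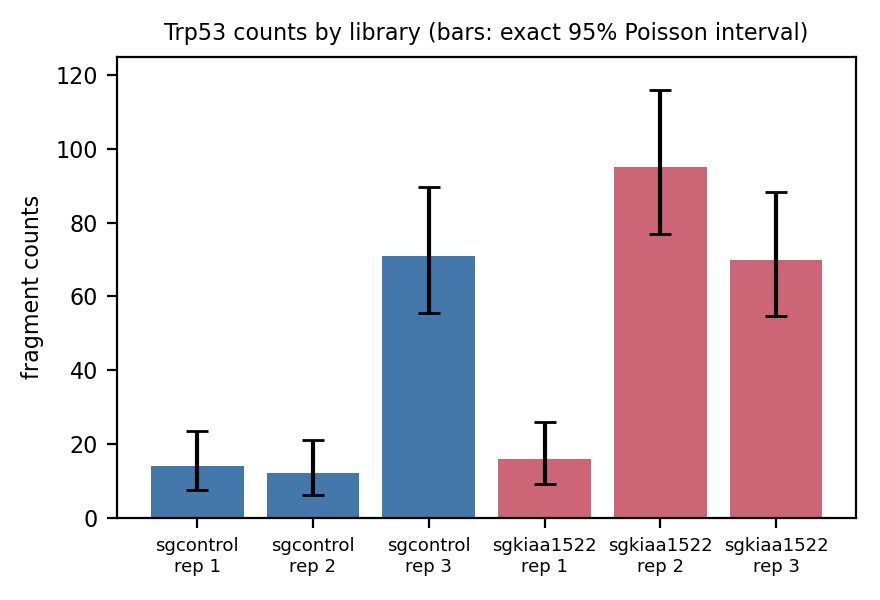
Trp53 counts in each library with exact 95% Poisson intervals. sgcontrol replicates 1 and 2 and sgkiaa1522 replicate 1 lie at 12 to 16 counts, and the other libraries at 70 to 95.

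The genes whose 6 libraries ran most like Trp53, by the root mean square difference of log2 CPM centred per gene, were Nek7 (0.622), Iffo2 (0.697) and Mbtd1 (0.699). Nek7 had 49.4, 35.7 and 194 CPM in sgcontrol and 218, 235 and 245 CPM in sgkiaa1522. It shared the high sgcontrol replicate 3 with Trp53, but not the low sgkiaa1522 replicate 1.

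Mdm2 (ENSMUSG00000020184, chr10:117688875-117710758, minus strand), the p53 ligase, was at 41.3, 38.0 and 40.2 CPM in sgcontrol and 39.3, 37.6 and 36.6 CPM in sgkiaa1522. The groups overlapped and all 6 libraries lay close together. Means were 39.8 ± 1.68 and 37.9 ± 1.35 CPM (SD, n = 3), with a log2 fold change of -0.073 (SE 0.0765, adjusted p = 0.45). Its relative Mdm4, which binds p53 and holds back its activity, fell from 180 ± 16.5 to 144 ± 5.56 CPM, a log2 fold change of -0.32 (SE 0.0793, adjusted p = 0.012). Cdkn2a, whose Arf product restrains Mdm2, was at 0 counts in all 6 libraries. That allows up to 0.162 to 0.247 CPM, the value of 3 counts in each library. For a count of 0, 3 counts is the one-sided 95% Poisson limit.

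The family members of p53 were also scarce. Trp73 had 1, 0 and 1 counts in sgcontrol and 0, 1 and 0 in sgkiaa1522. Trp63, a p53 relative of basal epithelial cells, had 34, 42 and 36 counts in sgcontrol and 27, 26 and 27 in sgkiaa1522. Its levels of 2.13 ± 0.16 and 1.74 ± 0.425 CPM (SD, n = 3) overlapped, with p = 0.3 in an exact two-sided permutation test.

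Cdkn1a (ENSMUSG00000023067, chr17:29090976-29100727, plus strand) encodes p21, the cyclin-dependent kinase inhibitor that carries out p53-driven arrest. Its libraries read 89.8, 107 and 117 CPM in sgcontrol and 101, 103 and 100 CPM in sgkiaa1522. The 3 sgkiaa1522 libraries sat inside the range of sgcontrol. Means were 105 ± 13.7 and 101 ± 1.22 CPM (SD, n = 3), with a log2 fold change of -0.048 (SE 0.0977, adjusted p = 0.70). Without sgcontrol replicate 3 the sign turned, to 0.035. A transcript of unknown type on the opposite strand, AC167363.2, shares 273 bases or 7.68% of the Cdkn1a exons, and whether the counting used strand is not given in the sources used here. Mrpl37 (0.0207), Tubb4b (0.0251) and Use1 (0.0258) ran most like Cdkn1a over the 6 libraries by the same root mean square difference.

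Ccng1 (ENSMUSG00000020326, chr11:40748552-40755311, minus strand) encodes cyclin G1, which recruits a phosphatase to Mdm2. It was at 75.1, 67.5 and 61.7 CPM in sgcontrol and 51.5, 55.1 and 51.2 CPM in sgkiaa1522. Every sgkiaa1522 library lay below every sgcontrol library. Means were 68.1 ± 6.71 and 52.6 ± 2.18 CPM (SD, n = 3). The gene was thus 1.29-fold lower, with a log2 fold change of -0.37 (SE 0.0916, adjusted p = 0.011).

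Sesn1 (ENSMUSG00000038332, chr10:41809935-41908424, plus strand) encodes sestrin 1, which restrains the growth kinase mTORC1 and takes part in antioxidant defence. Its values were 25.8, 26.1 and 22.9 CPM in sgcontrol and 14.5, 14.2 and 14.1 CPM in sgkiaa1522. The sgkiaa1522 libraries were nearly equal and all lower. The mean fell from 24.9 ± 1.77 to 14.3 ± 0.188 CPM (SD, n = 3), 1.74-fold, with a log2 fold change of -0.80 (SE 0.0943, adjusted p = 4.4e-04).

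Phlda3 (ENSMUSG00000041801, chr1:135766119-135769136, plus strand) encodes a pleckstrin homology domain protein that competes with Akt for membrane lipid and so dampens Akt signalling. It read 121, 152 and 163 CPM in sgcontrol and 79.5, 63.7 and 67.0 CPM in sgkiaa1522. No sgkiaa1522 library reached the lowest sgcontrol library. The mean fell from 146 ± 21.8 to 70.0 ± 8.36 CPM (SD, n = 3), 2.08-fold, with a log2 fold change of -1.06 (SE 0.131, adjusted p = 5.5e-04). Leaving out each library in turn gave -1.18 to -0.97.

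Zmat3 (ENSMUSG00000027663, chr3:32334792-32366014, minus strand) encodes a zinc finger protein that binds RNA. It was at 20.8, 23.5 and 22.7 CPM in sgcontrol and 18.9, 16.9 and 18.8 CPM in sgkiaa1522. The groups did not overlap, but the gap between them was narrow. Means were 22.3 ± 1.36 and 18.2 ± 1.12 CPM (SD, n = 3), with a log2 fold change of -0.30 (SE 0.0972, adjusted p = 0.035). The call held in 1 of 6 fits that each left out a library, and it was lost with DESeq2 (adjusted p = 0.058).

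Trp53inp1 (ENSMUSG00000028211, chr4:11156431-11174379, plus strand) encodes a stress protein that acts in apoptosis and autophagy. Its libraries read 47.3, 36.6 and 40.4 CPM in sgcontrol and 42.9, 47.6 and 50.6 CPM in sgkiaa1522. The groups overlapped because sgcontrol replicate 1 was high. Means were 41.5 ± 5.4 and 47.0 ± 3.87 CPM (SD, n = 3), with a log2 fold change of 0.18 (SE 0.116, adjusted p = 0.22). Without sgcontrol replicate 1 it was 0.28, with an adjusted p of 0.045.

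Perp (ENSMUSG00000019851, chr10:18845020-18857073, plus strand) encodes a desmosomal protein with a part in apoptosis, and Eda2r (ENSMUSG00000034457, chrX:97333840-97377216, minus strand) a receptor of the tumour necrosis factor family. Perp had 2, 0 and 0 counts in sgcontrol and 0 in each sgkiaa1522 library. Eda2r had 0 in each sgcontrol library and 1, 0 and 2 in sgkiaa1522. Neither passed 3 counts in any library, so no difference was detectable at this depth and no fold is given.

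**Figure D3:**
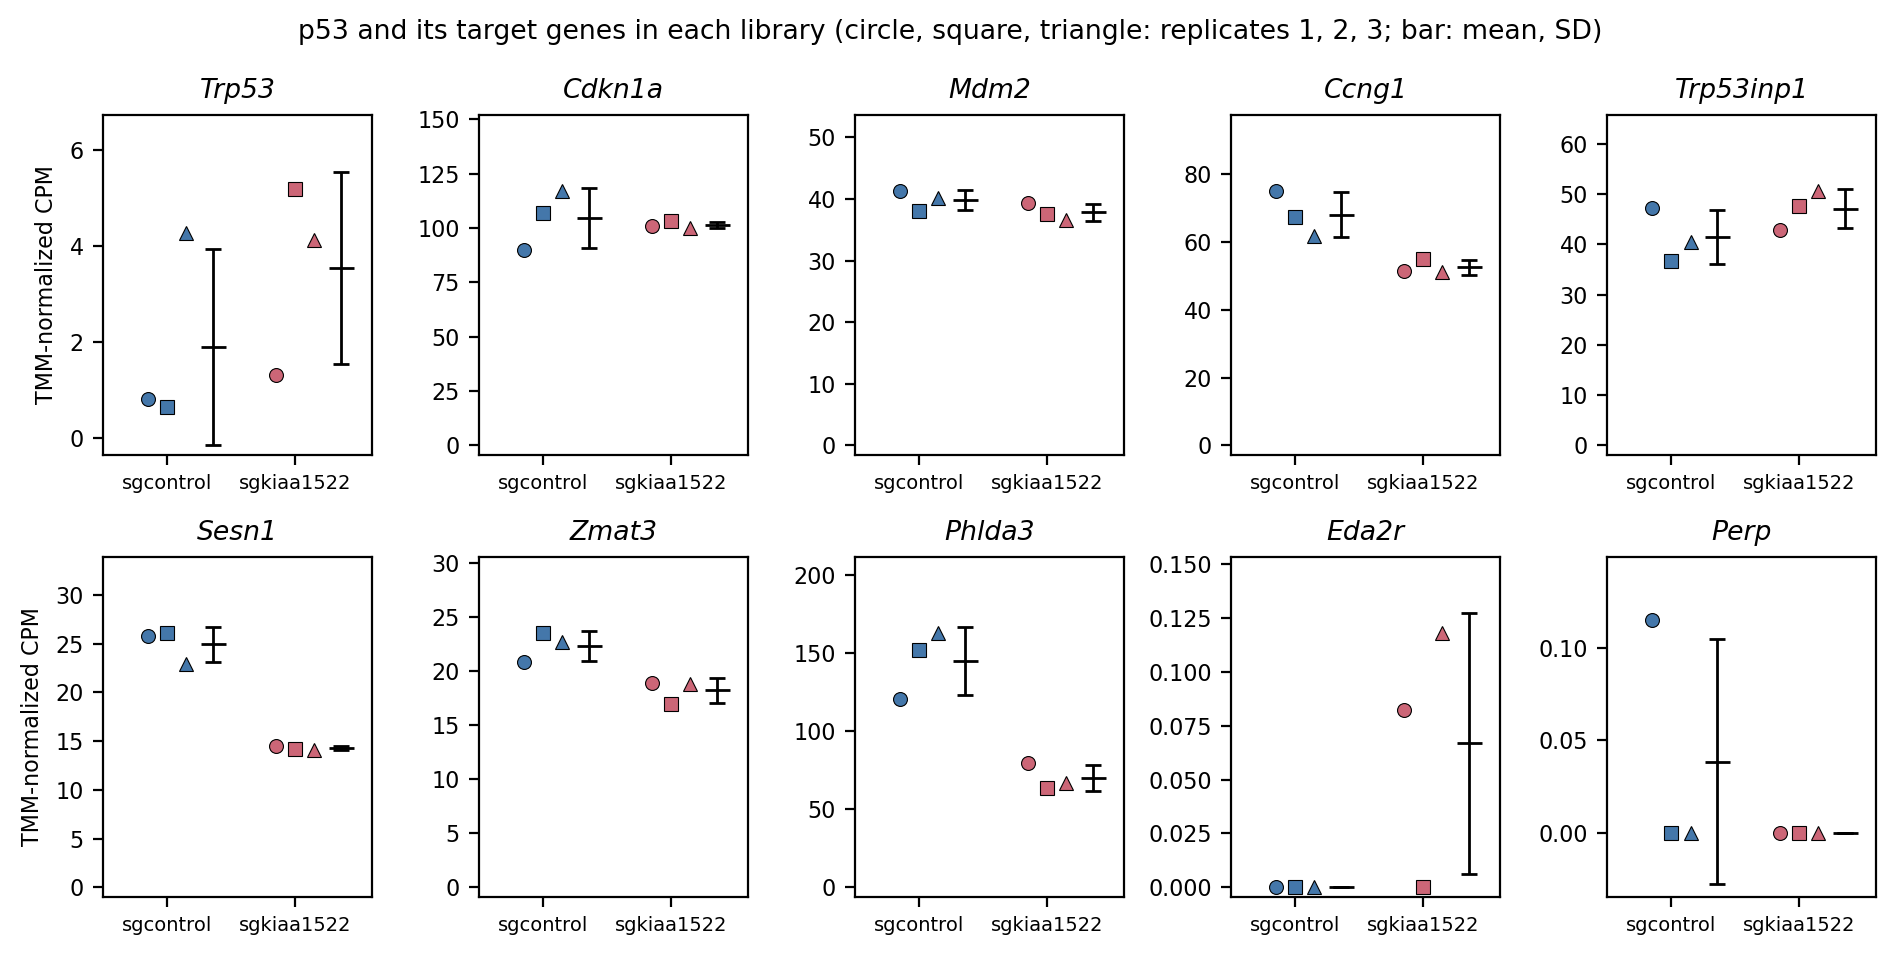
CPM of each of the 10 genes in every library, with the mean and SD of each group of 3. Phlda3, Sesn1, Ccng1 and Zmat3 are separated between sgcontrol and sgkiaa1522, and the other genes overlap or are near 0.

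**Figure D4:**
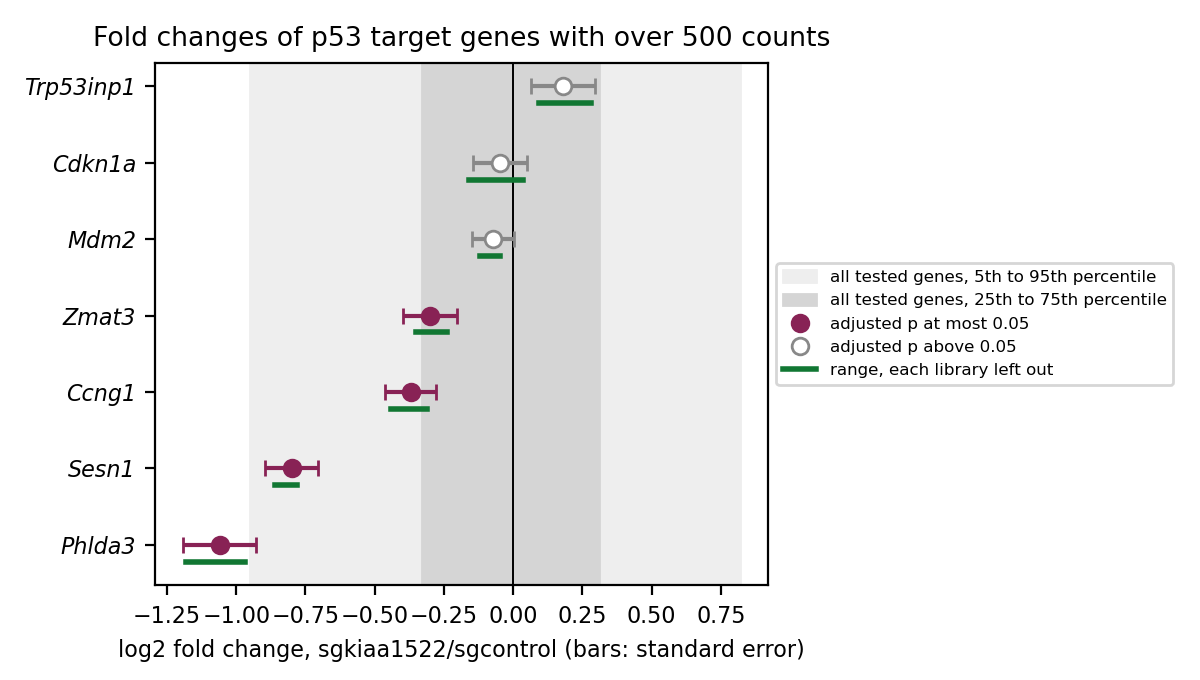
Log2 fold change (sgkiaa1522 over sgcontrol) with its SE for the 7 tested genes, and the range when each library is left out in turn. The values run from -1.06 for Phlda3 to 0.18 for Trp53inp1.

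The rest of the pathway was read from 5 further lists by role, which held 55 tested genes. Of these, 15 were lower (27.3%) and 14 higher (25.5%), close to the 26.3% of all tested genes in each direction, and the median log2 fold change was -0.033. With a log2 fold change that also reached 1 in size, 1 was lower (Gls2) and 2 were higher (Gadd45a and Tigar). Differences between the lists were not tested. The SD in each value below is over n = 3 libraries, and each adjusted p is edgeR's, as above.

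Among partners and regulators of p53, 4 of 16 tested genes were lower, 5 higher and 7 not called, with a median of -0.075. Chek2, a checkpoint kinase that phosphorylates p53, fell from 20.8 ± 1.37 to 15.4 ± 0.681 CPM (log2 fold change -0.44, adjusted p = 0.0069). Chek1, its counterpart in replication stress, had -0.48 (adjusted p = 0.033), but kept its call in only 2 of 6 fits without a library. Kat5, an acetyltransferase of p53, had -0.33 (adjusted p = 0.022) and likewise kept it in 2 of 6. Rnaseh2c, on the opposite strand, shares 12.1% of the Kat5 exons. Higher were Atm, the kinase of the double-strand break response, from 18.4 ± 6.87 to 36.5 ± 3.58 CPM (0.99, adjusted p = 0.0099), and Ep300, an acetyltransferase and p53 coactivator, from 79.9 ± 15.1 to 148 ± 4.81 CPM (0.89, adjusted p = 1.0e-03). Hipk2, a kinase of p53, rose by 0.68 (adjusted p = 0.012). These list members thus moved in both directions.

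Among targets of cell cycle arrest, 1 of 8 tested was lower, 4 higher and 3 not called, with a median of 0.41. Gadd45a, a stress protein of arrest and repair, read 36.8, 38.6 and 46.7 CPM in sgcontrol and 122, 109 and 111 CPM in sgkiaa1522. All 3 sgkiaa1522 libraries were above all sgcontrol libraries, a 2.80-fold rise (log2 fold change 1.48, SE 0.105, adjusted p = 6.6e-05). E230016M11Rik, on the opposite strand, shares 19.1% of the Gadd45a exons and had at most 52 counts. Plk3 and Plk2, stress-responsive polo-like kinases, rose by 0.90 (adjusted p = 4.0e-04) and 0.70 (adjusted p = 1.0e-04). Btg2, an antiproliferative gene, fell from 63.4 ± 0.792 to 46.6 ± 3.21 CPM (-0.45, adjusted p = 0.0026). Cdkn1a, of the same role, was not called, as given above.

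Among apoptosis targets, 3 of 9 tested were lower, 1 higher and 5 not called, with a median of -0.046. The lower ones were Pidd1, a scaffold for caspase 2 (-0.72, adjusted p = 0.0054), Siva1 (-0.50, adjusted p = 0.0077) and the death receptor Tnfrsf10b (-0.49, adjusted p = 0.0042). Apaf1, the core of the apoptosome, was higher (0.43, adjusted p = 0.033) and kept its call in 2 of 6 fits without a library. Among DNA repair targets, 1 of 7 was lower, 1 higher and 5 not called, with a median of -0.023. Pcna, the replication clamp, fell from 87.6 ± 4.72 to 67.1 ± 2.41 CPM (-0.38, adjusted p = 0.0030), and Xpc, which recognises damaged DNA, was called higher (0.28, adjusted p = 0.014) but kept the call in 3 of 6 fits without a library and lost it with the replicate block (adjusted p = 0.059).

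Among targets of metabolism, antioxidant defence and autophagy, 6 of 15 tested were lower, 3 higher and 6 not called, with a median of -0.26. Gls2, a glutaminase, was at 15.4, 14.4 and 17.7 CPM in sgcontrol and 7.42, 6.55 and 7.13 CPM in sgkiaa1522. It was 2.25-fold lower (log2 fold change -1.17, SE 0.124, adjusted p = 2.8e-04), with no overlap. Tigar, which lowers glycolytic flux, went the other way, from 17.5, 17.3 and 18.5 CPM to 40.6, 35.7 and 40.3 CPM. Its rise was 2.19-fold (1.13, SE 0.0904, adjusted p = 9.8e-05). Sesn2, the paralogue of Sesn1, rose from 31.1 ± 2.86 to 59.3 ± 2.51 CPM (0.93, adjusted p = 2.1e-04), so that Sesn1 and Sesn2 were called in opposite directions. Gpx1, a peroxidase (-0.84, adjusted p = 0.0018), and Dcxr, a reductase (-0.75, adjusted p = 0.0050), were lower. Sco2, a cytochrome oxidase assembly factor, was called higher (0.51, adjusted p = 0.031) and kept the call in 2 of 6 fits without a library. It shares 66.2% of its exon bases with Ncaph2 and 68.3% with Tymp, so its value is uncertain.

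Dram1, an autophagy gene, lay below the filter and was chosen after its values were seen. It had 113, 114 and 123 counts in sgcontrol and 13, 32 and 16 in sgkiaa1522, with no overlap. Its level went from 6.67 ± 0.636 to 1.25 ± 0.431 CPM (SD, n = 3), with an exact two-sided permutation p of 0.1, the smallest possible. With the looser filter the log2 fold change was -2.37 (SE 0.239, adjusted p = 1.9e-04). Sfn and Fancc, chosen in the same way, were lower without overlap, at 2.77 ± 0.0669 against 1.85 ± 0.448 CPM and 4.83 ± 0.459 against 3.08 ± 0.487 CPM. Casp1, an inflammatory caspase, was higher without overlap, at 2, 0 and 0 counts in sgcontrol and 4, 8 and 10 in sgkiaa1522. Of the 15 listed genes below the filter, 8 had at most 3 counts in every library.

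Genes that p53 lowers through p21 and the DREAM repressor complex were read last, as 20 cell cycle genes, all tested. Of these, 4 were lower, 4 higher and 12 not called, where 26.3% of all tested genes were called in each direction, and the median was -0.057. No gene of this list reached a log2 fold change of 1 in size. Birc5, or survivin, which acts in mitosis and inhibits apoptosis, fell from 150.0 ± 26.1 to 78.4 ± 6.95 CPM (-0.94, adjusted p = 0.0011). Mki67 and Top2a, markers of proliferation, had -0.31 each (adjusted p = 0.039 and 0.045) and kept the call in 2 and 1 of 6 fits without a library. Aurka, a mitotic kinase, rose by 0.59 (adjusted p = 0.0078), Cdc20, an activator of mitotic exit, by 0.45 (adjusted p = 0.0036), and Ube2c, a ubiquitin-conjugating enzyme of the same step, by 0.37 (adjusted p = 0.016). The Ube2c call was kept in 4 of 6 fits without a library, and Tnnc2, on the opposite strand, shares 22.8% of its exon bases with at most 10 counts in a library.

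**Figure D5:**
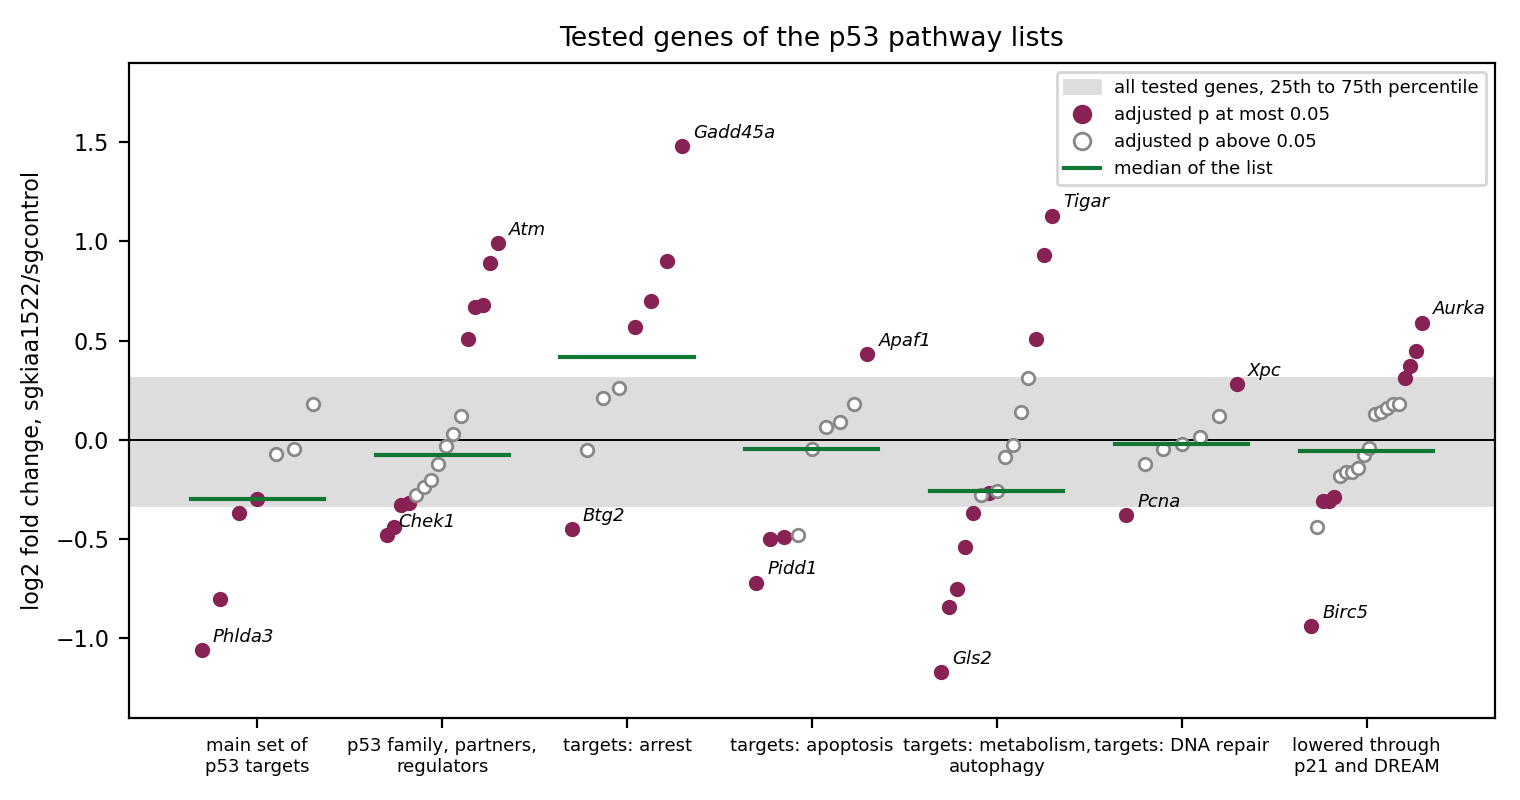
Log2 fold change (sgkiaa1522 over sgcontrol) of every tested gene in each p53 pathway list, with 1 point per gene and the median marked. The medians run from -0.30 for the 7 tested genes of the main set to 0.41 for the arrest list.

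Markers of cell types were also read, and the summed epithelial, fibroblast and leukocyte levels did not overlap between the groups, while the lung epithelial and endothelial sums did. The share of all genes without overlap between the groups was not counted. Among 6 epithelial markers, the summed level was 3810 to 4580 CPM in sgcontrol and 3220 to 3500 CPM in sgkiaa1522, with Epcam at 0 counts in all 6 libraries. All 4 tested epithelial markers were called lower, where 26.3% of all tested genes were. They ran from Cdh1, the adherens junction cadherin, at 56.4 ± 4.94 against 20.6 ± 1.15 CPM (-1.45, adjusted p = 5.1e-05), to Krt18 (-0.19, adjusted p = 0.050), whose call held in 1 of 6 fits without a library. The 6 lung epithelial markers summed to 128 to 187 and 111 to 167 CPM. Within that list 1 of 3 tested genes was lower, near the 26.3% of all tested genes, and 2 were not called. Sftpb, a surfactant protein gene, fell by 0.67 on the log2 scale (adjusted p = 0.012). Foxa2 went the other way, with 81.9 CPM in sgcontrol and 103 CPM in sgkiaa1522, but was not called (adjusted p = 0.069). Napsa, below the filter, had 1.11 ± 0.145 CPM in sgcontrol and 0.177 ± 0.0952 CPM in sgkiaa1522, without overlap. The 5 fibroblast markers summed to 425 to 442 and 145 to 164 CPM, most of it Col1a2 (-1.46, adjusted p = 1.5e-05). Col1a1, below the filter, had 7.01 CPM in sgcontrol and 1.74 CPM in sgkiaa1522. Pdgfra, Dcn and Lum had no more than 7 counts in any library, so the sum was nearly all collagen. The 5 leukocyte markers summed to 1.29 to 2.41 and 10.1 to 13.0 CPM, most of it Cd68 (3.23, adjusted p = 2.0e-05), with Ptprc at no more than 14 counts in any library, and the 4 endothelial markers to 0.809 to 1.66 and 0.942 to 1.24 CPM. The part of these shifts in the p53 target values was not tested.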

How the data were processed

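RNA of 889 cells was sequenced in 3 sgcontrol and 3 sgkiaa1522 libraries, grouped by their titles. Per the methods of the study, reads were trimmed and cleared of rRNA with Seqtk, mapped to GRCm38 with HISAT2 2.0.4, and uniquely mapped fragments were counted per gene with StringTie 1.3.0. The authors deposited raw counts without normalization, as whole numbers for 34745 Ensembl genes. The annotation release and strand setting are not given in the sources used here.

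The files were tested with edgeR 4.0.16 (R 4.3.3, limma 3.58.1), with its quasi-likelihood test, TMM factors and p-values adjusted by Benjamini-Hochberg over the 10046 genes with more than 500 counts in total. These held 99.48% to 99.55% of each library. The filter follows the study, and no covariate was used. Calls rest on an adjusted p of at most 0.05 alone. The study also required a log2 fold change that reaches 1 in size, and counts by that rule are given beside them. CPM was computed with TMM factors (0.989435 to 1.01044), and TPM with exon lengths from GENCODE M21, to which 34267 genes were matched. A floor of 3 counts equals 0.162 to 0.247 CPM. Single values below the filter were compared by exact permutation over all 20 assignments of the library labels. Promoter windows came from RefSeq on GRCm38.p6. The code was tested on simulated data.

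The 10 genes and all lists were chosen with earlier results of these data known. Named are the 10 genes, C77080, Mdm4, Cdkn2a, Trp63, Trp73, the 3 genes most like Trp53 and Cdkn1a, and genes sharing exons with one of the 10. Also named are the called genes of the pathway lists, including the DREAM list, with the 3 largest changes in each direction. Called genes of any list, markers included, are named where the log2 fold change reached 1 in size. Outside this rule, genes sharing exons with Gadd45a, Sco2, Kat5 or Ube2c are named for their position, and Dram1, Sfn, Fancc and Casp1 were chosen after their values were seen, as were the cell type markers named with values beside Cdh1, Col1a2 and Cd68. Same-numbered libraries did not deviate together (r of -0.214, -0.0508 and -0.165), so no pairing by number was seen. With 3 libraries per group these values cannot exclude it. No 2 libraries of a group agreed within sampling noise (chi-square per degree of freedom 12.29 to 30.65). The alternatives were 3 other tests including DESeq2 1.42.0, 2 other scalings, 2 other filters, the replicate block, each library left out in turn, the fold change threshold, and mean transcript length. No column was left without a sample.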

Additional observations from a re-analysis of the deposited data

How the results depend on the processing

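Of 98 values for the 7 tested genes over 14 alternatives, 86 kept their direction and call. The 10 that lost a call were all of Zmat3. The replicate block, for whose numbers no pairing was seen, left Zmat3 at -0.30 with an adjusted p of 0.098 and changed no other call among the 7. Leaving out each library in turn gave 3 to 4 genes lower and 0 to 1 higher, the 1 being Trp53inp1 without sgcontrol replicate 1. Cdkn1a ran from -0.16 to 0.035, and it reversed to 0.035 without sgcontrol replicate 3. When the log2 fold change had to reach 1 in size, 1 of the 7 was lower, and 436 of all tested genes were lower and 275 higher. The cause of these changes was not tested. Leave-one-out counts over all tested genes ran from 2047 to 2903 lower and 2011 to 2919 higher. Of 37 called genes in the other lists, 26 were called with every library left out in turn and 29 with the block. Other scalings moved the median of all genes from -0.0067 to between -0.021 and -0.0029. Depth limits Perp and Eda2r, with at most 2 counts in a library, while the Trp53 libraries of a group differed beyond counting error.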

Other observations

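Trp53 was not the only gene with a wide spread inside a group. Nkx2-1, a lineage factor of lung epithelium, had 55.7, 59.1 and 13.6 CPM in sgcontrol and 10.9, 9.49 and 39.5 CPM in sgkiaa1522. Scgb1a1, a club cell secretoglobin, had 16.8, 1.67 and 2.52 CPM in sgcontrol and 1.73, 1.53 and 4.42 CPM in sgkiaa1522. In sgcontrol the highest libraries differed between these genes, with Trp53 high in replicate 3, Nkx2-1 in replicates 1 and 2, and Scgb1a1 in replicate 1. In sgkiaa1522, replicate 3 was the highest for Nkx2-1 and Scgb1a1, and Trp53 was high in replicates 2 and 3. These genes were chosen after their values were seen, and no test was made.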
